A study of Mus musculus with 4 samples.

Results

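The comparison described here is FI versus VS in mouse liver, in which both factors of the study changed together: amyloid fibrils and interval training in FI, neither of them in VS. Genes were included when they had at least 5 CPM (counts scaled to a common library size) in FI or in VS, and 12 skeletal muscle genes that met this level were set aside. This left 9156 of the 35275 listed genes, 8969 of them protein coding, measured in 2 of the 4 samples of the series. At the limit, Zkscan6 was just inside with 5.002 CPM in its higher library, and Lect1 just outside with 4.997 CPM.

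All 4 groups were female mice of 26 weeks, carrying the amyloidogenic Apoa2c allele, and each sample is a pool of liver from 4 mice. The labels name the strain AKR/J with an Apoa2c congenic genotype, whereas the study's methods name R1.P1-Apoa2c, a congenic line on a SAMR1 background. VS (vehicle, sedentary) received saline and stayed sedentary, and VI (vehicle, interval exercise) received saline and underwent 16 weeks of high-intensity interval training (IT) on a treadmill. FS (fibril, sedentary) and FI (fibril, interval exercise) received AApoAII amyloid fibrils into the tail vein when the training period began, and only FI was trained. Organs were taken within 24 h of the end of training. Because FI differs from VS in both factors, the share of each cannot be told apart from this pair alone, so the levels in VI and FS are given beside it. FI/VS, VI/VS and FS/VS share the VS library and are therefore not independent.

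AApoAII amyloidosis is a systemic disease of mice in which apolipoprotein A-II, a protein of high density lipoprotein made in the liver, deposits as fibrils between the cells of many organs. Injected fibrils act as seeds for this deposition. Hepatocytes answer inflammatory cytokines with the acute phase response, in which secreted proteins such as serum amyloid A are strongly induced, and answer an overloaded endoplasmic reticulum (ER) with the unfolded protein response, which raises ER chaperones. Exercise and fasting raise glucagon and glucocorticoids, hormones that induce gluconeogenesis and amino acid breakdown in the liver.

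Total counts per library lay between 23442935 and 28814802, scaling was by the TMM method, and 3 counts, the most that a count of 0 allows, corresponded to between 0.102 and 0.127 CPM. With 1 library per group, FI versus VS has no test, and differences are given as log2 ratios with 95% Clopper-Pearson intervals on the split of a gene's reads between both libraries. The libraries carry no molecular identifiers, so reads may copy the same molecule, and the intervals cover counting error only, not differences between mice or pools. The hepatocyte marker albumin took between 12.1% and 13.6% of all counts. The 82 genes of the skeletal muscle list summed to 188 CPM (VS), 61.6 (VI), 40.9 (FS) and 35.8 (FI), and 10 of the 12 set aside were more than 2-fold lower in FI. In bulk tissue, fewer cells of a type and less RNA per cell cannot be told apart.

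Of the 9156 genes, 301 were more than 2-fold higher in FI than in VS (3.29%) and 224 were more than 2-fold lower (2.45%). The median log2 ratio over all of them was 0.02. More than 4-fold differences were found for 43 genes higher and 24 lower, and the whole counting interval lay beyond 2-fold for 192 and 140 genes. FI was the highest of the 4 libraries beyond the counting error of all 3 pairs for 959 genes (10.5%) and the lowest for 898 (9.81%). These shares over all genes are the background for the list counts below. The only test that the design allows is a model in which amyloidosis and exercise add on the log scale, with 1 residual degree of freedom, and whose error is the departure of the 4 libraries from additivity. In edgeR's quasi-likelihood test of the sum of both effects, 299 of 11760 genes were higher (2.54%) and 268 lower (2.28%) at a Benjamini-Hochberg adjusted p below 0.05. This test passed 205 of the 301 genes and 166 of the 224. Its estimate is in effect the FI/VS ratio by which these genes were picked, so the passes are not independent support. The same holds for passes given below for single genes and lists.

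**Figure D1:**
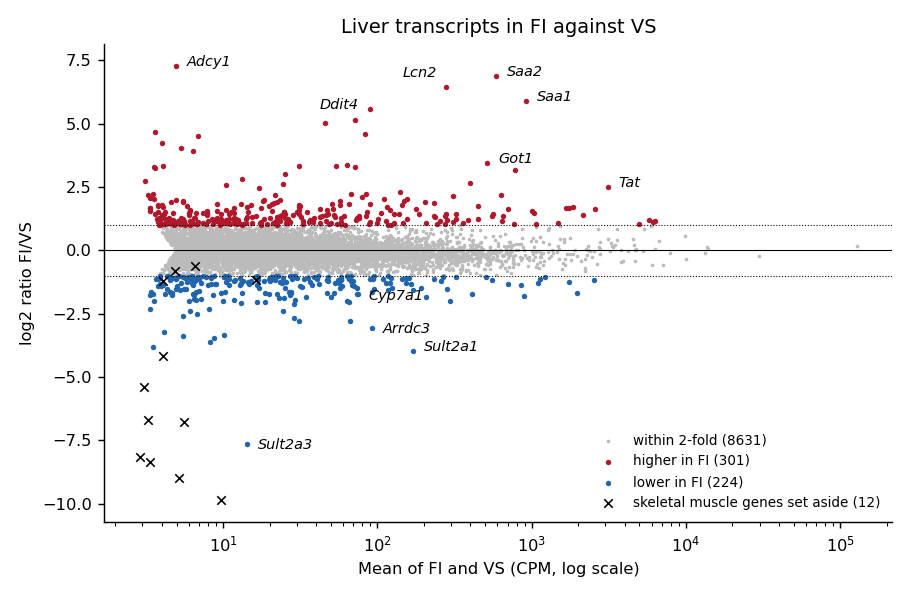
Each point is a gene with at least 5 CPM in FI or VS, plotted by its mean level in both libraries (CPM, log scale) and its log2 ratio FI/VS, with dotted lines at 2-fold. The 301 red genes are higher and the 224 blue genes lower in FI, and most of the crosses, the 12 skeletal muscle genes set aside, lie far below the lower line.

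The genes beyond 2-fold were placed against the libraries with 1 factor. They were picked by their FI/VS ratio, which favours FI as the extreme library, so the following shares are a description. Among the 301 higher genes, FI lay above both VI and FS beyond counting error for 199 (66.1%), level with the more extreme of them for 65, and short of it for 37. Among the 224 lower genes, the numbers were 148 (66.1%), 61 and 15. The more extreme library with 1 factor was FS for 215 of the higher and 125 of the lower genes, and VI for the other 86 and 99. Neither VI nor FS reached 2-fold against VS for 146 of the higher and 127 of the lower genes, and both did so in the same direction for 36 and 15. Of the genes that stopped short of the library with 1 factor, 34 of 37 higher and 14 of 15 lower ones were more extreme in FS, the untrained fibril liver.

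**Figure D2:**
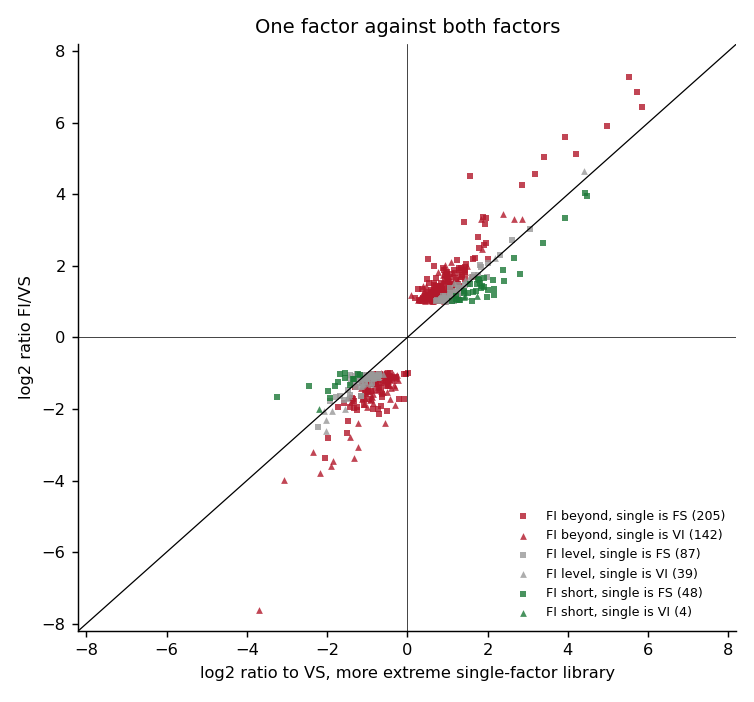
The 525 genes beyond 2-fold in FI/VS, with the log2 ratio to VS in whichever of VI and FS is more extreme on the x axis and the log2 ratio FI/VS on the y axis, so that both axes share VS. Red points (205 squares for FS and 142 triangles for VI) lie beyond the diagonal of equal ratios and green points (48 and 4) short of it.

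Acute phase genes took 3 of the 4 highest ratios among the named genes. Serum amyloid A proteins travel on high density lipoprotein during inflammation and are the precursors of another amyloidosis. Saa2 (ENSMUSG00000057465, chromosome 7, 46751833 to 46754314) had 9.95 CPM (VS), 51.1 (VI), 523 (FS) and 1164 (FI), a 117-fold difference with a log2 FI/VS of 6.87 (6.68 to 7.06). Its neighbour Saa1 (ENSMUSG00000074115, chromosome 7, 46740501 to 46742980) had 30.0 CPM (VS), 155 (VI), 945 (FS) and 1803 (FI), a log2 ratio of 5.91 (5.8 to 6.02). Both genes were in the same order over the libraries, from VS through VI and FS up to FI, and both passed the additive model, Saa2 with a sum of effects of 6.78 (SE 0.42, adjusted p = 0.0012) and Saa1 with 5.87 (SE 0.57, adjusted p = 0.012) in edgeR's quasi-likelihood test (Benjamini-Hochberg). Saa1 and Saa2 are near-identical copies whose reads the counting could have left out or given to the wrong copy, so the value of each is uncertain. Their promoters hold the same match to TTGCACAA, a variant site of the C/EBP factors that drive acute phase genes. The RefSeq windows are shown because this pair leads the comparison. In them 29 of 30 bases are identical, printed 5′ to 3′ in the direction of each gene with the match in capitals, on GRCm38.p6.
Saa1 (chr7:46743144-46743173, minus strand): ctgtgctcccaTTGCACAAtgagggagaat
Saa2 (chr7:46751639-46751668, plus strand): ctgtgctcccaTTGCACAAtgagggaaaat
On both strands, 305 of 27025 genes (1.13%) hold these letters in any of their RefSeq promoters of 300 bases. A share over the acute phase list is void, because only 24 of its 32 genes have a promoter in the table.

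Lcn2, which encodes the siderophore-binding protein lipocalin 2, had 6.35 CPM (VS), 36.5 (VI), 367 (FS) and 549 (FI). Its log2 ratio was 6.43 (6.20 to 6.68), and in the additive model it missed the threshold with 6.22 (SE 0.84, adjusted p = 0.051) by edgeR's quasi-likelihood test (Benjamini-Hochberg). Lcn2 is also a neutrophil gene. The other 17 genes of the neutrophil list summed to 4.62 CPM (VS), 5.30 (VI), 22.5 (FS) and 15.6 (FI). Most of the sum in FS and in FI, but not in VS and VI, came from Prtn3. Mpo and Ctsg were at 0 counts in both VS and FI, which allows up to 3 counts each. Prtn3, a serine protease of neutrophil granules, had 0.593 CPM (VS), 1.11 (VI), 13.1 (FS) and 10.1 (FI), and without both genes the list summed to 4.02, 4.19, 9.38 and 5.54 CPM in VS, VI, FS and FI.

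All 32 genes of the acute phase list reached 5 CPM, and 20 were more than 2-fold higher in FI and 1 more than 2-fold lower, with a median log2 ratio of 1.18 against 0.02 over all genes. FI was the highest library for 18 of the 32, FS for 12, and 11 passed the additive model as higher. The other 2 were Hamp2, highest in VI, and the only gene more than 2-fold lower, Spp1 (osteopontin), with 16.4 CPM (VS), 14 (VI), 15.1 (FS) and 7.15 (FI). Lrg1, a leucine-rich glycoprotein of plasma, had 229 CPM (VS), 435 (VI), 917 (FS) and 1036 (FI), while haptoglobin (Hp), which binds free haemoglobin, had 3489 CPM (VS), 4386 (VI), 6099.9 (FS) and 8022 (FI). Hemopexin (Hpx), the carrier of haem, had 3799 CPM (VS), 5837 (VI), 8015 (FS) and 8355 (FI). In these genes FI was the highest, by a smaller step than FS took above VS. Orm2, an acid glycoprotein of plasma, had 9.70 CPM (VS), 36.1 (VI), 149 (FS) and 97.4 (FI) and was 10.0-fold higher in FI than in VS although FS lay above FI. The fibrinogen chains Fga, Fgb and Fgg also peaked in FS, with log2 FI/VS of 1.15, 0.98 and 1.05. Orm1 to Orm3 are close copies, so their single values are uncertain. The serum amyloid P gene Apcs, a component of amyloid deposits, had 308 CPM (VS), 584 (VI), 1090.2 (FS) and 798 (FI), again with FS highest.

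Saa3, the serum amyloid A of macrophages and fat, had its largest step between the libraries with 1 factor and FI. It had 7.83 CPM (VS), 7.64 (VI), 11.3 (FS) and 35.6 (FI), with a log2 FI/VS of 2.18 (1.95 to 2.42). FI was also the highest library for Lbp and Cd14. Lbp, which binds bacterial lipopolysaccharide, had 135 CPM (VS), 212 (VI), 203 (FS) and 336 (FI), and its partner Cd14 had 3.30 CPM (VS), 5.34 (VI), 11.2 (FS) and 23.4 (FI). Macrophage transcripts were also above VS, but not in the same order over the libraries. All 15 genes of the Kupffer cell list that are in the table were above their VS level in FI, 3 beyond 2-fold, and they summed to 403 CPM (VS), 480 (VI), 662 (FS) and 639 (FI). Their median log2 ratio to VS was 0.71 in FS and 0.58 in FI, FS had the highest level for 7 and FI for 8, and FI was the highest beyond counting error for 5. Cd163, the haemoglobin scavenger receptor, had 9.02 CPM (VS), 14.2 (VI), 22.9 (FS) and 32.3 (FI), with FI on top. Lyz2, the lysozyme of macrophages, had 37.7 CPM (VS), 32.4 (VI), 71.1 (FS) and 53.7 (FI), with FS on top. The part of these cells in the acute phase values was not tested. Without Lcn2, Cd14 and Saa3, which immune cells also express, 17 of 29 acute phase genes were still more than 2-fold higher in FI. In the 18 measured genes of IL6, STAT3 and NF-kB signalling, 2 were more than 2-fold higher (11.1%, against 3.29% of all genes). These were the interleukin 1 receptor Il1r1 at 43.0, 95.1, 118 and 177 CPM in VS, VI, FS and FI, and Cebpd, a C/EBP factor of the acute phase, at 8.51, 11.9, 19.6 and 26.8 CPM in the same order. Socs3, an inhibitor induced by STAT3, had 9.53 CPM (VS), 12.2 (VI), 27.4 (FS) and 15.3 (FI), with FS rather than FI on top.

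**Figure D3:**
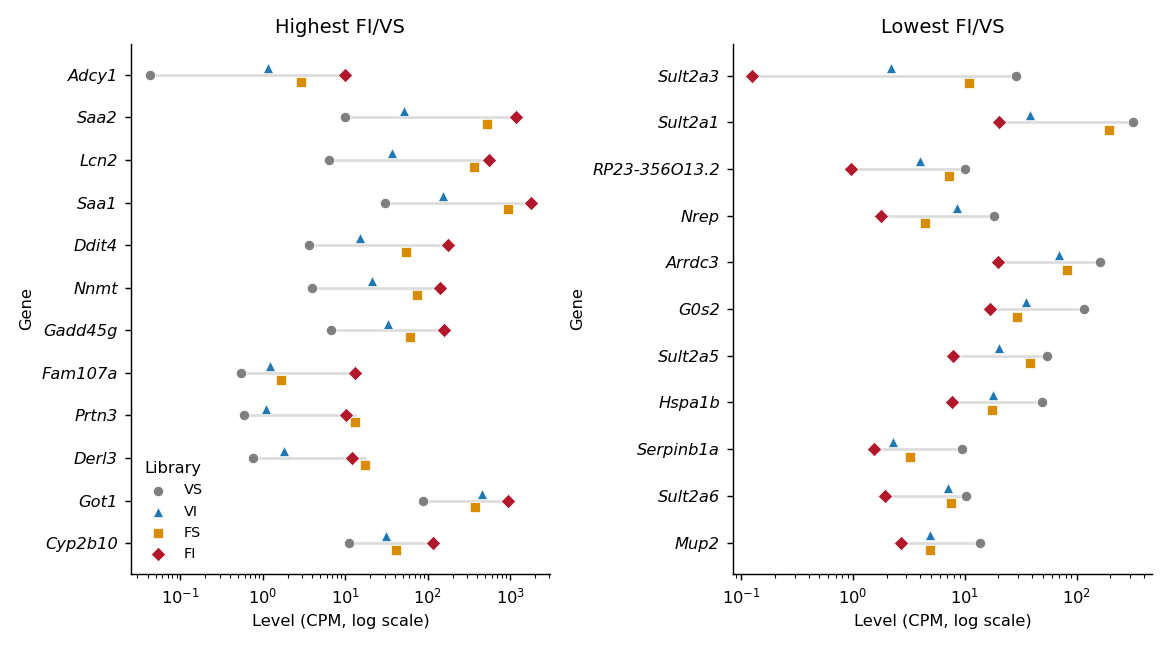
Level of the 12 genes with the highest (left) and 11 of the 12 with the lowest (right) log2 ratio FI/VS under the naming rule, which leaves out predicted genes and pseudogenes with -ps symbols, in each of the 4 libraries, in CPM on a log scale, with 1 symbol per library. FI is the highest library for 10 of the 12 on the left, with Prtn3 and Derl3 higher in FS, and FI has the lowest CPM of all 11 on the right.

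Most measured targets of the glucocorticoid receptor reached their highest level in FI. Of 18 of them, 12 were more than 2-fold higher in FI, FI was the highest of the 4 libraries for 14, and 11 passed the additive model, with a median log2 ratio of 0.50 in VI, 0.86 in FS and 1.47 in FI against VS. Ddit4 (ENSMUSG00000020108, chromosome 10, 59949675 to 59951770), an inhibitor of the growth kinase mTORC1, had 3.60 CPM (VS), 15.1 (VI), 55.3 (FS) and 175 (FI), a 48.3-fold difference, and passed the additive model with 5.52 (SE 0.20, adjusted p = 2.5e-05) in edgeR's quasi-likelihood test (Benjamini-Hochberg). Fkbp5, a co-chaperone that restrains the glucocorticoid receptor, had 100.2 CPM (VS), 151 (VI), 187 (FS) and 368 (FI), and Tsc22d3 (GILZ) had 94.6 CPM (VS), 123 (VI), 129.7 (FS) and 200.4 (FI). In each of these genes VI and FS lay between VS and FI. The metallothioneins Mt1 and Mt2, which bind zinc, were at 1255, 2226, 2534 and 3859 CPM and 790.0, 1359, 2040.4 and 2540.4 CPM in VS, VI, FS and FI, and Sgk1 had 25.2 CPM (VS), 27.8 (VI), 43.6 (FS) and 67.3 (FI). The receptor gene itself did not share this pattern: Nr3c1 had 87.6 CPM (VS), 81.5 (VI), 72.7 (FS) and 75.0 (FI), a log2 FI/VS of −0.22 (−0.31 to −0.13), and Hsd11b1, which regenerates active glucocorticoid, had 1052 CPM (VS), 1039 (VI), 858 (FS) and 884 (FI). Lcn2, Tat, Cdkn1a, Dusp1, Ddit4, Mt1 and Mt2 stand on this list and on others, so the lists are not independent.

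Many gluconeogenic and amino acid catabolic genes were also highest in FI. Of 23 genes of gluconeogenesis and glucagon action, 10 were more than 2-fold higher in FI and none lower, FI was the highest library for 16 and the lowest for 2, and 10 passed the additive model as higher. G6pc, which encodes the catalytic subunit of glucose 6-phosphatase, had 206 CPM (VS), 381 (VI), 181 (FS) and 694 (FI), so that FS was slightly below VS and FI above VI, with a log2 FI/VS of 1.75 (1.70 to 1.80). Igfbp1, an insulin-repressed binding protein, had 154 CPM (VS), 533 (VI), 585 (FS) and 1396 (FI), and the coactivator Ppargc1a had 11 CPM (VS), 19.9 (VI), 17.5 (FS) and 25.6 (FI). Got1, cytosolic aspartate aminotransferase, had 86.6 CPM (VS), 454 (VI), 376 (FS) and 946 (FI), a 10.9-fold difference that passed the additive model with 3.44 (SE 0.37, adjusted p = 0.0058) in edgeR's quasi-likelihood test (Benjamini-Hochberg). Pck1, the rate-limiting enzyme, differed by less, with 3810.5 CPM (VS), 4271 (VI), 4935 (FS) and 5252 (FI). Pdk4, which blocks entry of pyruvate into the citrate cycle, had 26.0 CPM (VS), 51.0 (VI), 5.79 (FS) and 44.5 (FI), lowest in FS and at its highest in VI, so that FI was not its extreme. The glucagon receptor Gcgr went the other way with 351 CPM (VS), 274 (VI), 263 (FS) and 210.1 (FI), a log2 FI/VS of −0.74 (−0.79 to −0.69).

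Of 30 genes of amino acid catabolism, 9 were more than 2-fold higher in FI and none lower, and FI was the highest library for 14. Tat, tyrosine aminotransferase, had 938 CPM (VS), 2018 (VI), 3226 (FS) and 5278 (FI), and tryptophan dioxygenase Tdo2 had 956 CPM (VS), 1131 (VI), 1244 (FS) and 1997 (FI). Sds, serine dehydratase, had 54.6 CPM (VS), 114 (VI), 114 (FS) and 177 (FI), with VI and FS alike and FI above both. Etnppl, a phospholyase of phosphoethanolamine, had 29.8 CPM (VS), 136 (VI), 35.7 (FS) and 139.7 (FI), high in both trained livers, and FI differed from VI by a log2 ratio of 0.04 (−0.03 to 0.11). In the urea cycle, which disposes of the nitrogen, 3 of 14 genes were more than 2-fold higher in FI and FI was the highest for 6. Ass1, argininosuccinate synthase, had 1194 CPM (VS), 2427 (VI), 2060.1 (FS) and 3130.4 (FI). The lyase Asl, which acts after it, had 496 CPM (VS), 817 (VI), 655 (FS) and 1032 (FI). Cps1, which brings ammonia into the cycle, had 1929.6 CPM (VS), 2630.3 (VI), 2874 (FS) and 3493 (FI). In these 3 genes FI was the highest and VS the lowest library. Otc, of the same cycle, had 362 CPM (VS), 301 (VI), 323 (FS) and 296 (FI). Nnmt, which methylates nicotinamide and is on none of the lists, had 3.98 CPM (VS), 20.9 (VI), 74.2 (FS) and 140.2 (FI), a 35.0-fold difference.

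**Figure D4:**
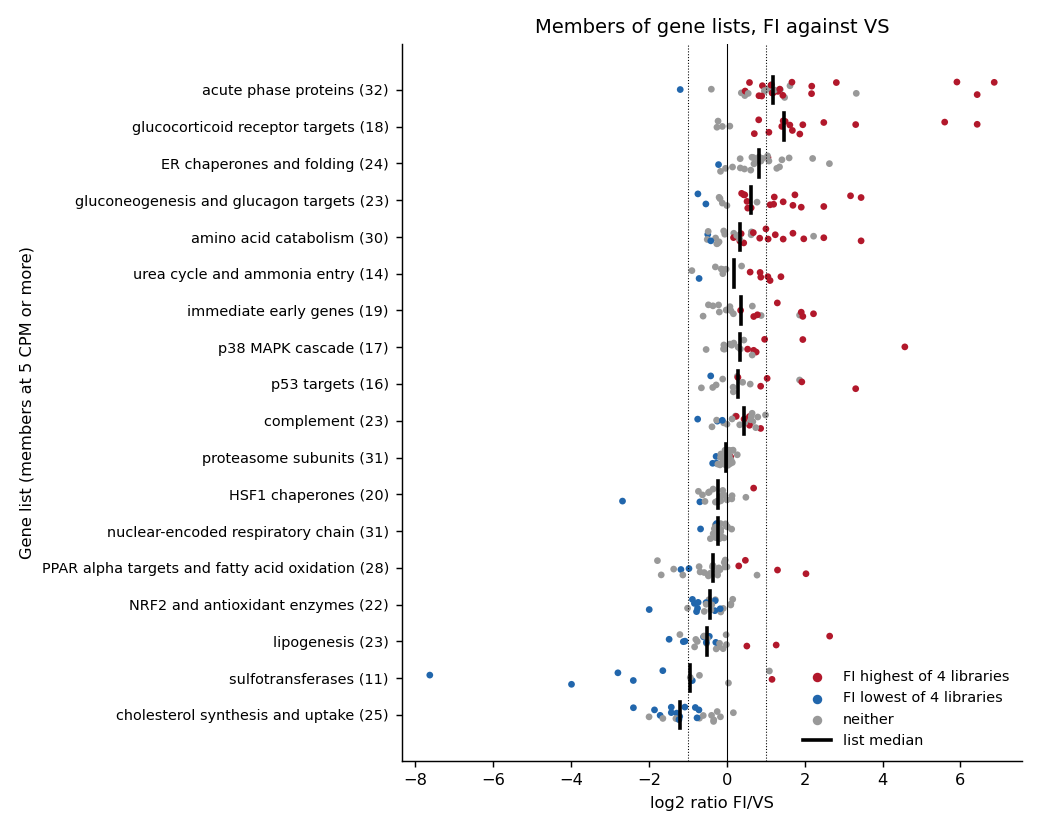
Log2 ratio FI/VS of every listed gene with at least 5 CPM in FI or VS, 1 row per gene list with the number of genes in brackets, black bars at list medians and dotted lines at 2-fold. Red points, for which FI was the highest of the 4 libraries beyond counting error, fill the right side of the acute phase and glucocorticoid rows, and blue points, for which it was the lowest, the left side of the cholesterol and sulfotransferase rows.

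ER chaperones were higher in FI than in VS but reached their extreme in FS. Of 24 genes, 9 were more than 2-fold higher in FI and none lower, with a median log2 ratio of 0.82, and 9 passed the additive model. Yet FS had the highest level for 20 of the 24, the median was 1.06 in FS/VS and 0.20 in VI/VS, and FI was the highest beyond counting error for 1, the co-chaperone Dnajc3. Hspa5 (BiP), the main Hsp70 of the ER, had 308 CPM (VS), 430.3 (VI), 1161 (FS) and 823 (FI), a log2 ratio of 1.42 (1.38 to 1.46) in FI/VS and −0.50 (−0.52 to −0.47) in FI/FS. Its additive estimate was 1.42 (SE 0.35, adjusted p = 0.073) in edgeR's quasi-likelihood test (Benjamini-Hochberg). Sdf2l1, a partner of BiP, had 6.73 CPM (VS), 11.4 (VI), 69.8 (FS) and 42.0 (FI). Creld2 had 23.9 CPM (VS), 31.5 (VI), 151 (FS) and 110.4 (FI). Manf, a secreted ER stress protein, had 43.0 CPM (VS), 54.0 (VI), 193 (FS) and 110.0 (FI). In all 3, FI lay between VI and FS. Calreticulin (Calr), a chaperone of glycoproteins, had 336 CPM (VS), 316 (VI), 651 (FS) and 586 (FI). Hsp90b1 (GRP94) had 229 CPM (VS), 254 (VI), 526 (FS) and 485 (FI). Derl3, which helps to export misfolded proteins from the ER for degradation, had 0.762 CPM (VS), 1.81 (VI), 17.3 (FS) and 12 (FI), while the other 18 measured genes of ER-associated degradation and of the stress sensors stayed within 2-fold. The sensor Ern1 (IRE1) had 42.9 CPM (VS), 41.7 (VI), 50 (FS) and 50.1 (FI) and its target Xbp1 had 154 CPM (VS), 140.5 (VI), 253 (FS) and 199 (FI). Of the ATF4 branch, 2 of 15 genes, Ddit4 and Chac1, were more than 2-fold higher and the hormone Fgf21 lower, while Atf4 had 106 CPM (VS), 124 (VI), 116 (FS) and 101 (FI) and Ddit3 (CHOP) had 9.02 CPM (VS), 7.39 (VI), 9.99 (FS) and 6.49 (FI).

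Promoters of several of these chaperones carry the ER stress element, CCAAT and CCACG separated by 9 bases, to which NF-Y and ATF6 bind. Each RefSeq promoter has 300 bases, from 250 before to 50 after the start. Over all genes, 37 of 27025 hold the element on either strand in any of their promoters (0.137%). Of the 20 genes of the list that are in the RefSeq table, 7 do so (35%). The windows of 5 of them are shown with both parts of the element in capitals, printed on the strand on which it reads in this order, on GRCm38.p6. These 5 were chosen to show genes with large and small differences in FI/VS.
Creld2 (chr15:88819515-88819543, minus strand): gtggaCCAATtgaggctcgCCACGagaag
Hspa5 (chr2:34772020-34772048, plus strand): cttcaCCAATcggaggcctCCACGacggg
Hsp90b1 (chr10:86705633-86705661, minus strand): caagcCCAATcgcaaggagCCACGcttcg
Dnajc3 (chr14:118937822-118937850, plus strand): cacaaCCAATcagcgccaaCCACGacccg
Canx (chr11:50325795-50325823, minus strand): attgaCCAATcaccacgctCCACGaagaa
Measured from the RefSeq start, the end of the match farthest from the start lies 126, 65, 212, 105 and 145 bases upstream in this order. Creld2 is printed on the strand opposite to its gene, the others on the strand of their gene. The annotation of the counts starts Hspa5 further upstream, at 34771970, so that its window lies inside the gene as counted. Log2 FI/VS in the same order was 2.21, 1.42, 1.08, 1.06 and 0.34. A match to these letters is a description and not a measured binding site. The other motifs were searched on both strands in the same way. TGACGTGG (XBP1 and ATF6) occurred in 2 of the 20 genes, CACGTG (E-box) in 3 and TTGCGCAA (C/EBP) in 1. TTCNNNGAA (STAT), TTGCACAA and TTATGTAA (D-box) occurred in none. Over all 27025 genes, the counts were 193, 2187, 56, 2582, 305 and 299 in the same order. Shares over the 301 higher genes are void, since 221 of them are in the table. The shares of the ER chaperone list are incomplete too, with 20 of its 24 genes in the table.

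**Figure D5:**
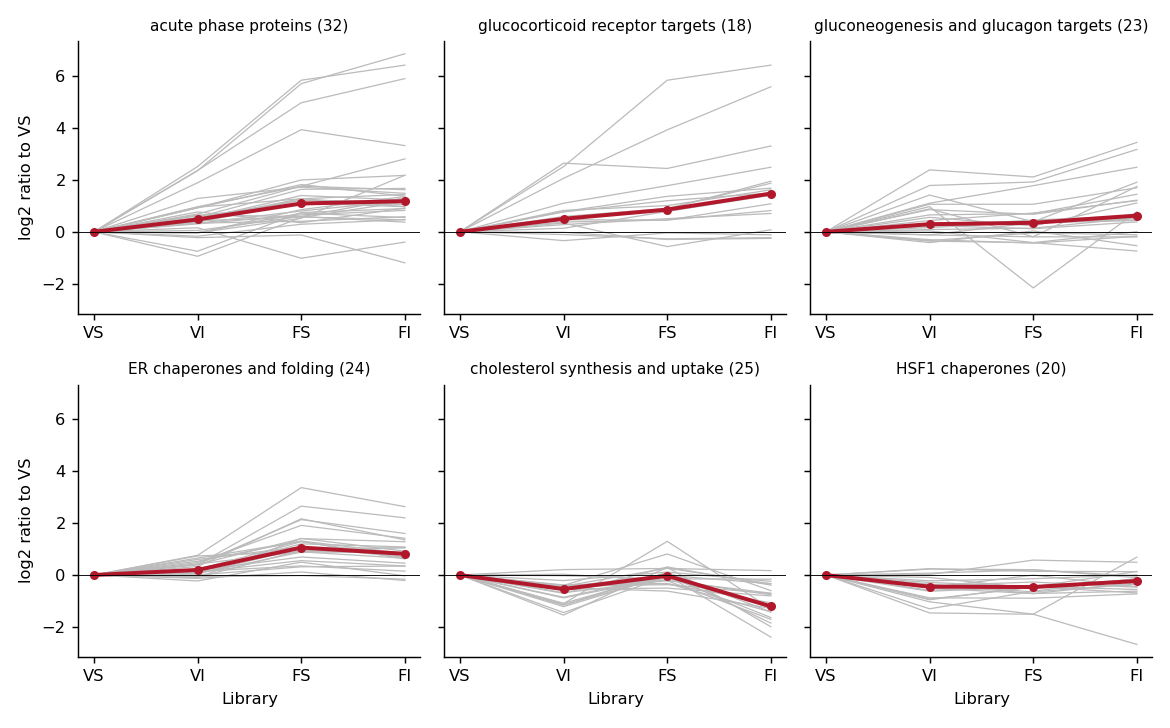
Log2 ratio to VS in each library for 6 gene lists, with a grey line per gene and a red line through the medians, so that every line starts at 0 in VS. The red line ends at its highest point in FI for the acute phase (1.18), glucocorticoid (1.47) and gluconeogenesis (0.63) lists, peaks in FS for the ER chaperones, and drops to −1.21 in FI for cholesterol synthesis.

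Stress genes of the p38 MAPK and p53 pathways, on which the study concentrates, were split. Gadd45g (ENSMUSG00000021453, chromosome 13, 51846678 to 51848468), which activates the kinase upstream of p38, had 6.65 CPM (VS), 32.8 (VI), 60.7 (FS) and 159 (FI), a 23.8-fold difference. Dusp1, the phosphatase that switches p38 off, had 23.5 CPM (VS), 32.6 (VI), 43.3 (FS) and 91.1 (FI). FI was the highest library for 6 of the 17 measured genes of the p38 list, but only Gadd45g and Dusp1 were more than 2-fold higher. The kinase p38 alpha itself, Mapk14, had 81.9 CPM (VS), 88.4 (VI), 63.7 (FS) and 77.8 (FI), a log2 FI/VS of −0.07 (−0.17 to 0.02) that includes 0. Among 16 p53 targets, 4 were more than 2-fold higher. Cdkn1a (p21), a cell cycle inhibitor, had 5.63 CPM (VS), 35.4 (VI), 30.8 (FS) and 56.1 (FI), a 9.92-fold difference, but with 3.10 (SE 0.75, adjusted p = 0.14) it did not pass the additive model in edgeR's quasi-likelihood test (Benjamini-Hochberg). Trp53inp1, which promotes cell death and autophagy, had 61.7 CPM (VS), 114 (VI), 156 (FS) and 235 (FI). The kinase Plk3 had 58.0 CPM (VS), 106 (VI), 99.0 (FS) and 119 (FI). The transcript of p53 itself was level over the libraries. Trp53 had 17.2 CPM (VS), 15.8 (VI), 14.9 (FS) and 16.0 (FI), a log2 FI/VS of −0.10 (−0.31 to 0.10). Ccng1 and Mdm2, further targets, were at −0.27 and 0.16 on the log2 scale.

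Of 20 measured cytosolic heat shock genes, Hspa1b alone was beyond 2-fold. Hspa1b, the inducible Hsp70, had 49.5 CPM (VS), 17.9 (VI), 17.3 (FS) and 7.73 (FI), a log2 FI/VS of −2.68 (−2.91 to −2.46) that passed the additive model with −2.70 (SE 0.20, adjusted p = 0.0011) in edgeR's quasi-likelihood test (Benjamini-Hochberg). It has a near-identical copy in Hspa1a, so the value for either is uncertain. The study's qPCR of single mice instead reported no change of Hspa1b with training or amyloidosis. Hspb1, the small heat shock protein, had 13.7 CPM (VS), 6.69 (VI), 4.81 (FS) and 22.2 (FI), so that it was lowest in the libraries with 1 factor and highest in FI, with a log2 FI/VS of 0.69 (0.49 to 0.89), less than 2-fold. The study's qPCR of single mice instead reported Hspb1 about 2-fold higher in VI and in FS than in VS. For FI it reported an additive increase over VS. No other gene of the 20 measured HSF1 targets had FI as its highest library beyond counting error, and the list median was −0.23. Hsp90aa1 had 192 CPM (VS), 77.7 (VI), 124 (FS) and 174 (FI), and Dnajb1 had 37.7 CPM (VS), 30.9 (VI), 27.6 (FS) and 23.4 (FI). Cryab, a further small heat shock protein, was below the 5 CPM limit with 3.60, 2.05, 1.76 and 1.45 CPM in VS, VI, FS and FI. For Cryab too, the study's qPCR reported no change. The skeletal muscle list was highest in VS, with 188 CPM against 35.8 in FI. The part of muscle RNA in the Hspb1 and Cryab values was not tested.

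The lowest ratios belonged to hydroxysteroid sulfotransferases, which attach sulfate to bile acids and steroids. Sult2a1 (ENSMUSG00000078798, chromosome 7, 13796246 to 13837409) had 322 CPM (VS), 38.4 (VI), 196 (FS) and 20.3 (FI), 15.8-fold lower in FI, and passed the additive model with −3.98 (SE 0.17, adjusted p = 6.9e-05) in edgeR's quasi-likelihood test (Benjamini-Hochberg). Sult2a3 was counted 673, 53, 323 and 3 times in VS, VI, FS and FI, a log2 FI/VS of −7.62 (−10.13 to −6.29). Sult2a5 had 54.6 CPM (VS), 20.2 (VI), 38.3 (FS) and 7.85 (FI) and Sult2a6 had 10.3 CPM (VS), 7.06 (VI), 7.59 (FS) and 1.94 (FI). In each of these genes FI was lower than both VI and FS. VI was also lower than FS, except that in Sult2a6 these libraries were close to each other. RP23-356O13.2, a pseudogene on chromosome 7 from 13639107 to 13642572, inside the span of Sult2a5, had 10.1 CPM (VS), 3.98 (VI), 7.21 (FS) and 0.951 (FI). Because the members of this cluster resemble each other closely, counting may have left out or misassigned their reads, and each value alone is uncertain. Of 11 measured sulfotransferase genes, 5 were more than 2-fold lower in FI, all of the Sult2a family, and 2 were higher. Sult1d1, a phenol sulfotransferase, was the opposite with 156 CPM (VS), 237 (VI), 215 (FS) and 350.1 (FI).

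Transcripts of cholesterol synthesis and uptake had their lowest list median in FI. None of the 25 measured genes was more than 2-fold higher in FI, 14 were more than 2-fold lower, 14 passed the additive model as lower, and FI was the lowest library for 13 beyond counting error. The median log2 ratio to VS was −0.54 in VI, −0.03 in FS and −1.21 in FI. The list median was near the VS level in FS and below it in both trained livers. Cyp51, a demethylase of lanosterol, had 45.8 CPM (VS), 20.5 (VI), 49.4 (FS) and 17.1 (FI). Stard4, a carrier of cholesterol inside the cell, had 94.6 CPM (VS), 52.2 (VI), 92.9 (FS) and 40.4 (FI). Msmo1, a methylsterol oxidase of the pathway, had 78.4 CPM (VS), 36.8 (VI), 80.8 (FS) and 21.7 (FI). Hmgcs1, which makes HMG-CoA, had 115 CPM (VS), 117 (VI), 98.3 (FS) and 35.0 (FI), with VI close to VS, and did not pass the additive model with −1.68 (SE 0.66, adjusted p = 0.29) in edgeR's quasi-likelihood test (Benjamini-Hochberg). The regulator Srebf2 stayed within 2-fold, with 58.5 CPM (VS), 50.4 (VI), 63.3 (FS) and 49.4 (FI). Sqle had 9.02 CPM (VS), 4.19 (VI), 22.2 (FS) and 3.64 (FI), highest in FS and low in both trained livers.

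Lipogenic transcripts were lower in part. Of 23 lipogenic genes, 4 were more than 2-fold lower in FI, FI was the lowest library for 7, and 2 were higher. Srebf1, the transcription factor of lipogenesis, had 284 CPM (VS), 174 (VI), 165 (FS) and 102 (FI), a log2 FI/VS of −1.48 (−1.55 to −1.41), and Elovl5, a fatty acid elongase, had 321 CPM (VS), 219 (VI), 261 (FS) and 148 (FI). Fasn (fatty acid synthase) had 162 CPM (VS), 104 (VI), 157 (FS) and 134 (FI). The desaturase Scd1 had 1249.5 CPM (VS), 1981 (VI), 2181 (FS) and 1029 (FI), highest in FS and lowest in FI. Lpin1, a phosphatidate phosphatase that also acts as a coactivator of fat oxidation, was the opposite with 111 CPM (VS), 241 (VI), 429 (FS) and 690.3 (FI), a 6.24-fold difference. G0s2, an inhibitor of the lipase Atgl and on none of the lists, had 117 CPM (VS), 35.1 (VI), 29.6 (FS) and 16.7 (FI). Among 28 targets of PPAR alpha, 5 were more than 2-fold lower and 2 higher in FI, and the list had its lowest median in FS (−0.70) rather than in FI (−0.35). Acaa1b, a thiolase of peroxisomes, had 2994 CPM (VS), 1949 (VI), 791 (FS) and 933 (FI), whereas Plin5, a lipid droplet protein, had 60.7 CPM (VS), 117 (VI), 75.3 (FS) and 249 (FI). Fabp1, the liver fatty acid binding protein, was lowest in FI with 3537 CPM (VS), 2129 (VI), 2422 (FS) and 1565 (FI).

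For some genes FI stood well apart from all of the other 3 libraries. It lay at least 2-fold above the highest of the other 3 libraries for 24 genes and at least 2-fold below the lowest for 24. Cyp7a1, the rate-limiting enzyme of bile acid synthesis, was close to its VS level with either factor. It had 114 CPM (VS), 112 (VI), 107 (FS) and 34.1 (FI), a log2 FI/VS of −1.74 (−1.85 to −1.62). Aqp8, a water channel of hepatocytes, had 36.2 CPM (VS), 29.3 (VI), 39.8 (FS) and 9.84 (FI). Osgin1, an oxidative stress-induced growth inhibitor, was already lower in FS. It had 473 CPM (VS), 436 (VI), 285 (FS) and 119 (FI). Since the error of the additive model is the departure from additivity, it gave Cyp7a1 −1.71 (SE 0.71, adjusted p = 0.31) and Aqp8 −1.78 (SE 0.74, adjusted p = 0.31) in edgeR's quasi-likelihood test (Benjamini-Hochberg), which does not show that these genes were equal. Of the other 19 genes of bile acid synthesis and transport, all were within 2-fold, Cyp8b1 with 209 CPM (VS), 303 (VI), 146 (FS) and 177 (FI) and the regulator Nr0b2 (SHP) with 73.3 CPM (VS), 65.1 (VI), 74.8 (FS) and 74.0 (FI).

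The genes with the largest steps of FI above the other libraries were also above VS in FS. Fam107a, an actin-associated protein, had 0.551 CPM (VS), 1.23 (VI), 1.66 (FS) and 13.1 (FI) from 13, 30, 49 and 317 counts. Lyve1, a hyaluronan receptor of sinusoidal and lymphatic endothelium, had 0.678 CPM (VS), 1.03 (VI), 1.83 (FS) and 6.57 (FI) from 16, 25, 54 and 159 counts. The other 14 genes of the sinusoidal endothelial list did not share the size of this difference: they summed to 432 CPM (VS), 412 (VI), 361 (FS) and 432 (FI), and none was more than 2-fold higher. Adcy1, an adenylyl cyclase, was counted 1, 28, 86 and 239 times in VS, VI, FS and FI. With 1 count in VS its log2 FI/VS of 7.28 has an interval of 5.37 to 13.18. Cyp2b10, a cytochrome P450 induced through the receptor CAR, had 11.2 CPM (VS), 31.5 (VI), 41.2 (FS) and 116 (FI), a 10.4-fold difference.

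Genes of the major urinary proteins, carriers of pheromones made in the liver, were also among the lowest ratios. Of 9 that reached 5 CPM, 7 were more than 2-fold lower in FI and none higher, and 4 of the 9 are pseudogenes, which the naming rule leaves out and which were added after their values were seen. Mup-ps4 had 6.61 CPM (VS), 1.44 (VI), 3.83 (FS) and 0.455 (FI), a log2 FI/VS of −3.80 (−4.89 to −2.98). Mup-ps10 had 15.3 CPM (VS), 4.06 (VI), 4.98 (FS) and 1.24 (FI), a log2 ratio of −3.60 (−4.21 to −3.08). In both, VI and FS lay between VS and FI. Mup-ps13 and Mup-ps2 had log2 ratios of −3.45 and −3.21. Mup2 had 13.6 CPM (VS), 4.88 (VI), 4.84 (FS) and 2.69 (FI). The coding genes did not all share this: Mup3, at a far higher level, had 953 CPM (VS), 1111 (VI), 557 (FS) and 741 (FI), and Mup20 had 8.68 CPM (VS), 11.1 (VI), 12 (FS) and 13.2 (FI). Copies in this family are near-identical, so reads may have been left out or misassigned and each value alone is uncertain.

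Arrdc3, Serpinb1a and Nrep also had low ratios. Arrdc3, an arrestin-like adaptor that responds to nutrients, had 164 CPM (VS), 69.7 (VI), 81.5 (FS) and 19.7 (FI), 8.31-fold lower in FI with VI and FS close to each other. Serpinb1a, an inhibitor of neutrophil proteases, had 9.40 CPM (VS), 2.30 (VI), 3.25 (FS) and 1.53 (FI), and here FI was level with VI within counting error. Nrep had 18.4 CPM (VS), 8.5 (VI), 4.40 (FS) and 1.78 (FI). The NRF2 list, of antioxidant enzymes, had no gene more than 2-fold higher, 2 more than 2-fold lower and 10 of 22 with FI the lowest library, among them glutathione peroxidase Gpx1 with 2842 CPM (VS), 2439 (VI), 1723 (FS) and 1599 (FI) and catalase (Cat) with 1964 CPM (VS), 1526 (VI), 1335 (FS) and 1180.2 (FI).

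The amyloid precursor and its partner stayed within 2-fold. Apoa2, which encodes apolipoprotein A-II, had 8482 CPM (VS), 6584 (VI), 5451 (FS) and 5627 (FI), a log2 FI/VS of −0.59 (−0.60 to −0.58), with FS lower than FI. The study's qPCR of single mice reported that training did not affect Apoa2 mRNA in liver. Apoa1 had 13124 CPM (VS), 12191 (VI), 13474 (FS) and 14408 (FI), a log2 FI/VS of 0.13 (0.13 to 0.14). Of the 21 apolipoprotein and HDL genes, only Apoa4 was beyond 2-fold, with 55.3 CPM (VS), 109 (VI), 163 (FS) and 155 (FI).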

How the data were processed

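Liver RNA of 4 mice per group was pooled and sequenced as 1 library for each of the 4 groups. Per the labels, the authors processed reads with fastp 0.23.2, STAR 2.5 and HTSeq 0.6.1 on mm10, and the study's methods name edgeR for differential expression, with the dispersion for unreplicated groups and the strand setting of counting not given in the sources used here. The deposited counts are whole reads per gene, and the deposited FPKM values are these counts per gene length and library total, as recomputed to within 3.1e-07 of a ratio of 1. The FPKM values were used only as an alternative.

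Counts were scaled by TMM (edgeR 4.0.16 in R 4.3.3). Log2 ratios used a prior of 0.5 counts, and 95% Clopper-Pearson intervals were computed with scipy 1.17.1 in Python 3.11.15. FI was called highest or lowest when all 3 of its intervals, against VS, VI and FS, lay on one side of 0. The additive model (amyloidosis plus exercise) was fitted by robust quasi-likelihood in edgeR. It included 11760 genes that reached 1 CPM in 2 or more libraries, with Benjamini-Hochberg adjustment over all of them. Both procedures were also run on simulated counts, with counting error only for the intervals and with effects that add exactly for the model. These runs do not show how the intervals behave with differences between pools, or the model with departures from additivity. Alternatives used DESeq2 1.42.0 and limma 3.58.1. Figures were drawn with matplotlib 3.10.9.

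The genes and the 45 gene lists were chosen with earlier results of these data known. Named genes were the 12 highest and 12 lowest log2 ratios, the 6 largest steps of FI beyond the other 3 libraries in each direction, transcripts that the study names, and, for each list, up to 4 members per direction with the largest ratios and members whose role is explained. Predicted genes, pseudogenes with -ps symbols, immunoglobulin segments and muscle genes were left out of the first 2 rules, and a few named genes are not reported here. Of the 35275 entries, 52 symbols are listed more than once. Promoters came from RefSeq on GRCm38.p6, and motifs were searched on both strands.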

Additional observations from a re-analysis of the deposited data

Results flagged for a closer look

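Both genes below differed in opposite directions with training, depending on whether fibrils had been given, by more than 2-fold each way. With 1 library per group, neither difference was tested. For Hspb1, the log2 ratio with training was −1.03 without fibrils (VI/VS) and 2.2 with them (FI/FS). Its log2 ratio with fibrils was −1.51 in sedentary mice (FS/VS) and 1.72 in trained mice (FI/VI). In the study's qPCR of single mice, by contrast, Hspb1 was about 2-fold higher in VI and in FS than in VS. There, FI showed an additive increase over VS. The study's own RNA-seq likewise gave a log2 FI/FS above 2.2. For Krt23, a keratin on the list of bile duct markers, the log2 ratio with training was −1.36 without fibrils (VI/VS) and 1.58 with them (FI/FS), from levels of 41.8, 16.3, 4.40 and 13.2 CPM in VS, VI, FS and FI. No group held the 4 samples needed to look for a sample far from the others.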

How the results depend on the processing

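Without replicates, the fold threshold and the filter set the counts. Against 301 genes higher and 224 lower, there were 516 and 429 at 1 CPM, 2332 and 2322 with no filter beyond 1 count, 856 and 719 beyond 1.5-fold, and 43 and 24 beyond 4-fold. The deposited FPKM with a pseudocount of 1 gave 163 higher. An edgeR exact test called 130 higher and 89 lower at an assumed biological coefficient of variation (BCV) of 0.2 and 13 and 2 at 0.4. FI was the highest library for 2515 genes and the lowest for 2254 by CPM alone, 122 and 100 by at least 1.5-fold, and 1965 and 2889 by FPKM, which has no counting interval. The additive model with at least 1 count in any library called 741 higher and 743 lower. At 10 CPM, 3 immediate early genes were more than 2-fold higher against 5. The median log2 FI/VS of chemokines (main 0.58) was −0.029 at 1 CPM and −0.035 with no filter, that of extracellular matrix genes (main 0.10) −0.069 and −0.11, and that of plasma and B cell markers (main 0.31) −0.018 in both. These filters admit lower genes. Total counts in place of TMM gave 274 higher and 248 lower, with the median of all genes shifted by −0.05, and DESeq2 size factors gave 299 and 225. With total counts, FI was the highest library beyond counting error for 688 genes and the lowest for 1253, against 959 and 898 with TMM. No named gene beyond 2-fold reversed under another scaling, FPKM or a prior of 2 counts. No paired analysis was possible because each group is 1 library, and for the same reason no replicate could be left out.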

Other observations

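Immediate early genes, which respond within minutes to hormones and stress, were higher in FI in part. Of 19 measured, 5 were more than 2-fold higher in FI than in VS and none lower, and FI was the highest library for 7. Fos, a subunit of AP-1, had 1.23 CPM (VS), 1.23 (VI), 4.00 (FS) and 5.83 (FI), and the nuclear receptor Nr4a1 had 1.91 CPM (VS), 5.13 (VI), 2.51 (FS) and 7.23 (FI). In the growth hormone and IGF axis, 2 of 15 genes were more than 2-fold higher and 1 lower, the growth factor receptor Egfr with 47.3 CPM (VS), 114 (VI), 236 (FS) and 234 (FI) and the acid-labile subunit Igfals with 157 CPM (VS), 103 (VI), 83.3 (FS) and 77 (FI). Cytochrome P450 genes of families 1 to 3 had 3 of 35 higher and 3 lower (8.57% each), against 3.29% and 2.45% of all genes. FI was the lowest library for 9 of the 35, against 9.81% of all genes. Among transporters of metals, Slc30a10, an exporter of manganese, had 8.09 CPM (VS), 15.4 (VI), 16.2 (FS) and 20.4 (FI). Of 17 negative acute phase plasma proteins, 2 were more than 2-fold lower, transferrin (Trf) with 129 CPM (VS), 86.8 (VI), 111 (FS) and 59.1 (FI) and corticosteroid-binding globulin (Serpina6) with 1225 CPM (VS), 735 (VI), 494 (FS) and 469 (FI).

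Several lists stayed within 2-fold in FI against VS. None of 31 proteasome subunits, 31 nuclear-encoded respiratory chain genes and 23 complement genes was beyond 2-fold, with list medians of −0.01, −0.24 and 0.45 on the log2 scale. Among interferon-stimulated genes, 2 of 19 (10.5%) were more than 2-fold higher, Cxcl9 and Usp18, against 3.29% of all genes. Of 6 measured chemokines 3 were higher, and of 16 extracellular matrix genes 2 were higher and Col3a1 was lower, with 8.47 CPM (VS), 5.99 (VI), 7.25 (FS) and 3.89 (FI). The clock genes Dbp and Nr1d1 were low in both trained livers, Dbp with 102 CPM (VS), 22.2 (VI), 80.9 (FS) and 25.5 (FI) and Nr1d1 with 30.0 CPM (VS), 7.10 (VI), 49.0 (FS) and 7.19 (FI). The time of day of sampling is not stated in the labels or methods. Of 4 measured cell cycle genes, only cyclin D1 (Ccnd1) was beyond 2-fold, with 34.4 CPM (VS), 15.8 (VI), 39.1 (FS) and 10.5 (FI). No T and NK cell marker reached 5 CPM.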
